A study of Mus musculus with 6 samples.

Results

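The interleukins and their receptors were taken as every gene whose name in the deposited count files begins with Il and a digit, a rule that covers ligands, receptors and soluble antagonists. The rule found 85 genes of 34745, with 83 names, since Il11ra2 stood on 3 rows. By role, 38 were ligands or secreted antagonists, 43 were receptor genes and 4 were others. Il1bos, an antisense RNA at the Il1b gene, was counted among the others.

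Interleukins are secreted proteins through which mostly immune cells signal to one another and to the tissue around them. Each family works through its own receptors: those of the IL-1 family pair a ligand-binding chain with an accessory chain and signal through MyD88 and NF-κB, while most others signal through JAK kinases and STAT factors, many with a shared chain such as the common gamma chain or gp130. In white fat, IL-33 and the type 2 interleukins are known for sustaining regulatory T cells, eosinophils and innate lymphoid cells, and IL-1β and IL-6 are known as inflammatory cytokines of obese fat.

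The tissue was inguinal white adipose tissue (IngWAT), a subcutaneous depot, of 3 SAKI and 3 WT mice. SAKI mice are adipose-specific Slc35d3 knock-in animals, in which adiponectin-Cre, active in adipocytes, removes a stop cassette in front of a Slc35d3 transgene. The WT mice were their controls, which held the Slc35d3 alleles but no Cre (Adiponectin-Cre-/-) and are labelled wild type, and the transgenic line was made on the C57BL/6 background. All were males that began a normal chow diet (NCD, 10 kcal% fat) at 6 weeks of age and ate it for 10 weeks, to an age of 16 weeks, and the labels of both groups record PBS perfusion. Cells other than adipocytes carry no active transgene in this design, and interleukin receptors are carried largely by such cells, so a whole piece of fat measures both kinds together. In bulk tissue, fewer cells of a type and less RNA per cell cannot be told apart.

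RNA-seq counts per gene were compared. The libraries held 15354161 to 18787036 counts, and levels are given in CPM, counts scaled to a common library total, after TMM scaling, which evens out library composition. Differences are given as log2 ratios, the fitted log2 fold change of SAKI against WT mice, with a standard error (SE) and a p from edgeR's quasi-likelihood fit adjusted over all genes tested. Slc35d3 itself lay at 73.3 to 82.1 CPM in the WT and at 745 to 793 CPM in the SAKI libraries, a log2 ratio of 3.33 (SE 0.12, edgeR adjusted p = 0.000244). An exact two-sided permutation test of the 6 libraries had p = 0.1, and 3 against 3 allow no smaller value. The library of WT 2 stood apart from its group. Along principal component 1 (47.9% of the variance) it lay at 24.4, beside the SAKI libraries at 21.0 to 27.8, whereas WT 1 and WT 3 lay at -40.6 and -58.1. Mitochondrial genes took 13.8% of its counts, against 7.31% in WT 1, 8.78% in WT 3 and 13.1% to 15.9% in SAKI mice, so this share too moved with the groups and with WT 2, and its part in the differences below was not tested. The Slc35d3 level of WT 2 was that of a WT mouse, and values without it are given below where it made the groups overlap or turned a sign. Adipocyte markers were abundant in every library, with 6 genes summing to 12038 to 17364 CPM, and mesothelial markers were near 0, with 4 genes summing to 0.652 to 7.33 CPM and Wt1 without a count. B cell markers, with 6 genes at 408 to 706 CPM in sum, were present in all 6 libraries too.

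Most receptor genes were expressed in IngWAT and most ligand genes were not. A gene was called expressed at 1 CPM or more in at least 3 of the 6 libraries, which 48 of the 85 members and 42.0% of all genes met. Another 21 members had some counts below that level, and 16 had no count in any library, which allows a level of up to 0.160 to 0.195 CPM depending on the library's depth (3 counts of the total, counting error only). Of the 43 receptor genes 35 were expressed, 4 fell below the limit and 4 had no count. Of the 38 ligands and antagonists 10 were expressed, 16 fell below the limit and 12 had no count.

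The expressed ligands and antagonists were Il1a, Il1b, Il1rn, Il18, Il18bp and Il33 of the IL-1 family, Il7 and Il15, Il12a, and Il17d, and of the genes outside the families Il16 and Il34 were expressed too. The textbook type 2 and type 17 cytokines were not among them. Il4, the cytokine that steers T cells and macrophages toward type 2 immunity, had 0, 1 and 0 counts in WT 1, 2 and 3 and 2, 0 and 5 counts in SAKI 1, 2 and 3. Il13, its close relative, had 0, 2 and 0 counts in the WT and 0, 0 and 1 in the SAKI libraries. Il10, an anti-inflammatory cytokine, had 3, 10 and 10 counts in the WT and 9, 0 and 5 in the SAKI libraries. At such counts a difference between the groups was not detectable. Il17a, Il22, Il3 and Il9 had no count anywhere. All 12 receptors of the common gamma chain and type 2 group were expressed, and all 5 of the IL-17 family, but none of the 5 ligands of the IL-10 family.

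Per length of gene, receptors led. FPKM, counts scaled by gene length and library total, averaged 31.7 for Il2rg, 31.2 for Il7r, 18.9 for Il6st, 16.5 for Il4ra and 15.6 for Il27ra over the 6 libraries. The highest ligand or antagonist of the families was Il18 at 8.22 FPKM, followed by Il18bp at 7.88 FPKM and Il33 at 4.01 FPKM. Within the IL-1 receptor group, Il1r1 at 12.0 and Il1r2 at 10.7 FPKM stood far above the accessory chain gene Il1rap at 1.13 FPKM. For Il1r2 this gap depended on the scaling by length. In CPM, Il1rap lay above Il1r2 in WT 1 and WT 3, though below Il1r1 in every library. Some of these levels depended on the library. Il1r2 ranged from 2.96 FPKM in WT 3 to 16.3 FPKM in SAKI 3, and Il31ra from 0.142 FPKM in SAKI 2 to 3.34 FPKM in WT 1, while Il10rb stayed between 6.68 and 9.95 FPKM.

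**Figure D1:**
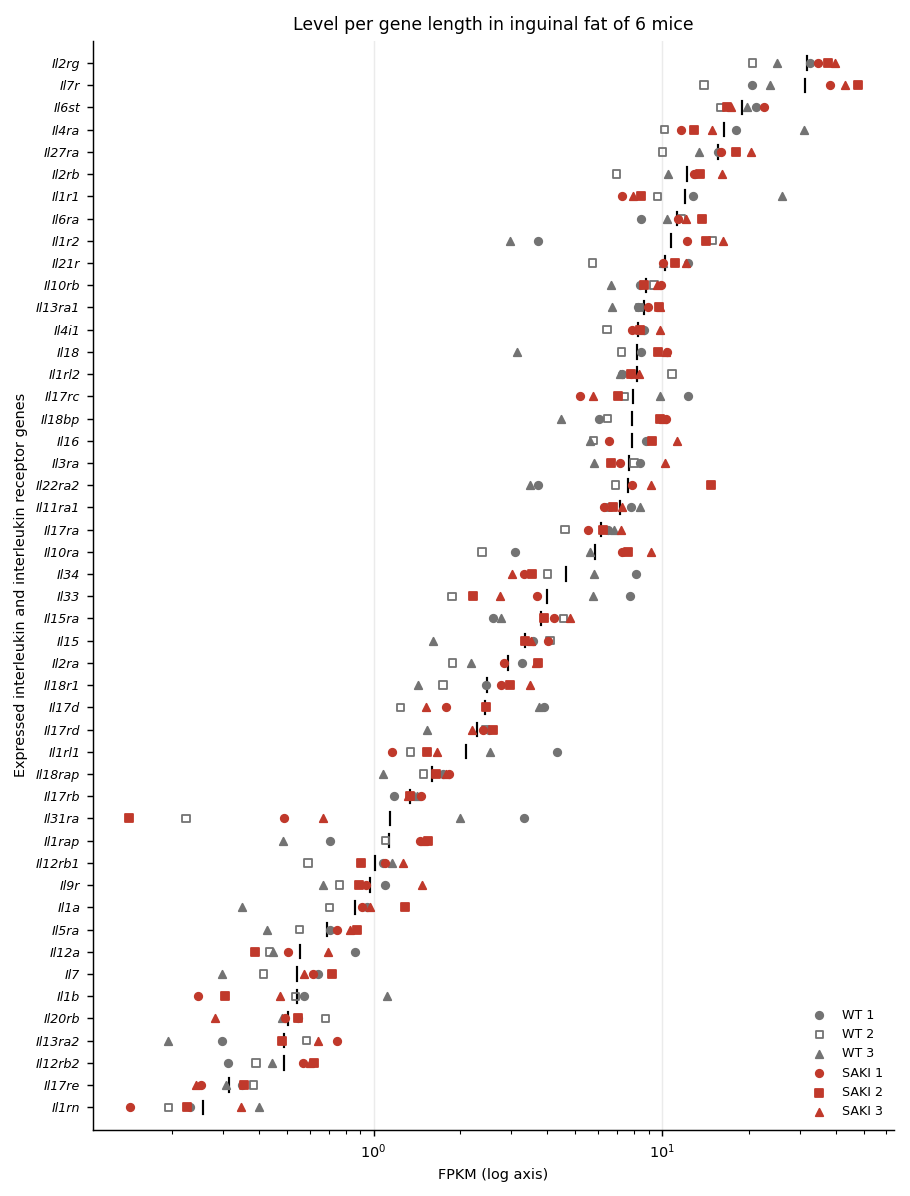
FPKM (log axis) of the 48 expressed interleukin and interleukin receptor genes in the 3 WT (grey, WT 2 open) and 3 SAKI (red) libraries, with a tick at the mean of all 6, in the order of that mean. Il2rg and Il7r lead at 31.7 and 31.2 FPKM, and the red and grey symbols are apart for Il7r and mixed for Il6st.

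Between SAKI and WT mice no interleukin or receptor gene passed the test over all genes. Of the 50 members tested, 0 had an adjusted p under 0.05 with edgeR, where 0.0325% of all 15400 genes tested did, and limma-voom also called 0. At an unadjusted p under 0.05 there were 15, of which 10 were higher and 5 lower in SAKI mice, 30% of the members against 18.4% of all genes, with 8.36% higher and 9.99% lower. For 19 members the SAKI and WT libraries did not overlap, 15 with every SAKI library higher and 4 with every one lower. That was 38.0% of the members against 25.4% of all genes, of which 13% were higher and 12.4% lower. The median log2 ratio was 0.22 over the 50 members, with 33 above 0 and 17 below, and -0.00 over all genes.

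These counts depended on WT 2 and on the tool. Without WT 2, edgeR called 12 members, 24% of them against 16.6% of all genes, of which 7.41% were higher and 9.14% lower. Il1r2, Il1rap, Il7r, Il18bp, Il22ra2 and Il15ra were higher, and Il34, Il17rc, Il1rl1, Il33, Il31ra and Il1r1 were lower. In 5 of the 12, Il1r2, Il15ra, Il1rl1, Il33 and Il31ra, WT 2 lay within the SAKI range or past it. In another 6 it lay between WT 1 and WT 3 on one side and the SAKI libraries on the other, and for Il7r alone it lay on the far side of both other WT libraries. With all 6 libraries, DESeq2 called 9 members, 18% against 4.7% of all genes (2.01% higher and 2.69% lower): Il7r, Il18bp, Il18r1, Il10ra, Il1rap and Il22ra2 higher, and Il17rc, Il34 and Il1r1 lower. It gave Il23r and Il12b no adjusted p. The lists shared 7 genes, 58.3% of the calls without WT 2 and 77.8% of those of DESeq2. The groups did not overlap for 31 members without WT 2, 62.0% against 52.7% of all genes, and the median log2 ratio was then 0.30.

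**Figure D2:**
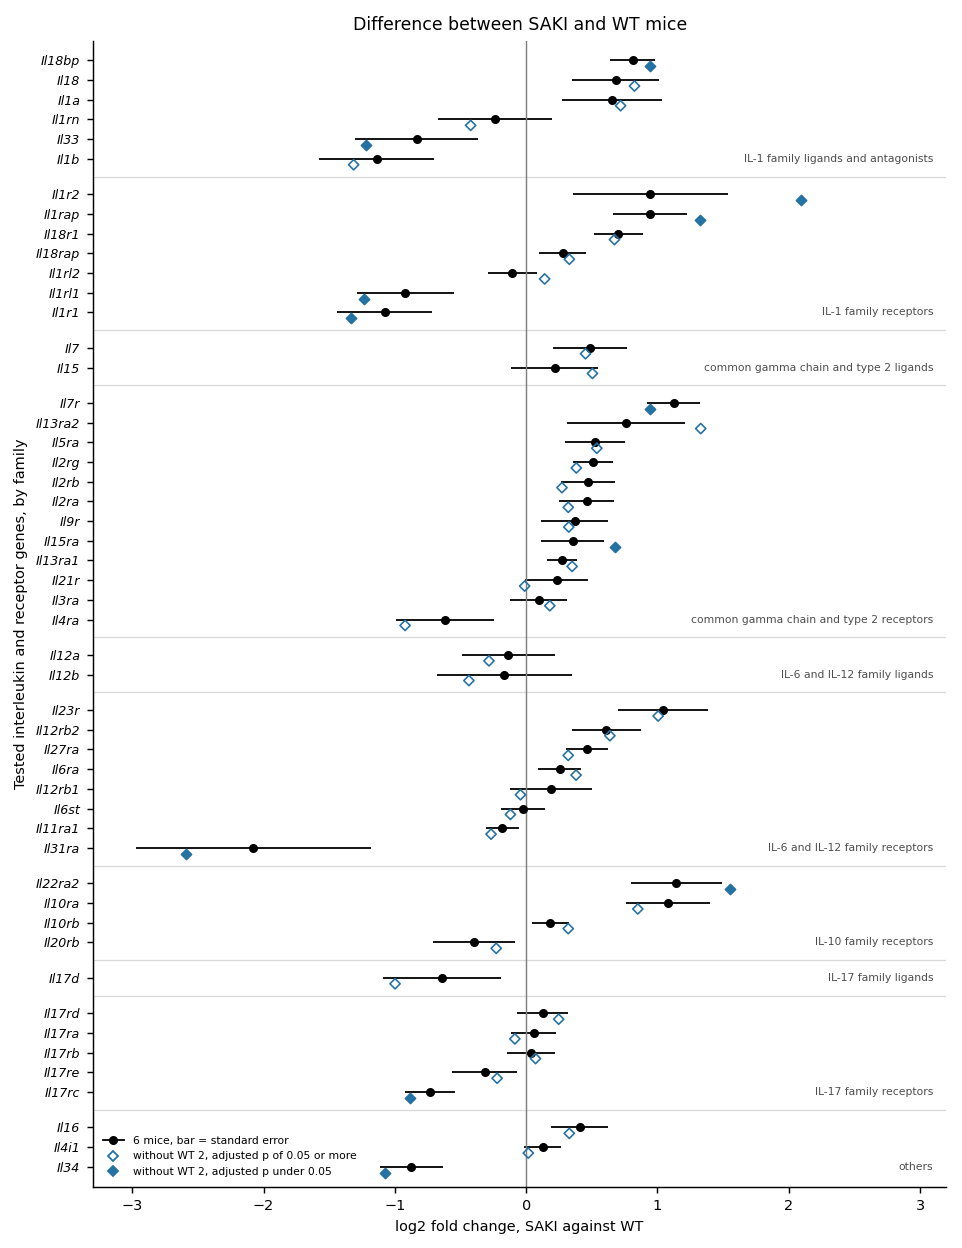
Log2 fold change of SAKI against WT mice for the 50 tested interleukin and receptor genes, by family; black points with bars give edgeR's estimate and its standard error from 6 mice, and blue diamonds the estimate without WT 2, filled where the adjusted p was under 0.05. None passed with 6 mice and 12 did without WT 2, and 11 of the 12 receptors of the common gamma chain and type 2 group lie right of 0.

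The IL-1 family ligands and antagonists did not share a direction. Below, values are in CPM in the order of mice 1, 2 and 3. Il18bp, which encodes a secreted protein that binds and blocks IL-18, was at 8.10, 9.34 and 6.55 CPM in WT and 14.7, 13.6 and 13.8 CPM in SAKI mice. Every SAKI library lay above every WT library, WT 2 included. This gave a log2 ratio of 0.81 (SE 0.17, edgeR adjusted p = 0.155; DESeq2 adjusted p = 0.00983). Il18, its target, a cytokine released by macrophages and epithelia, was at 5.77, 5.32 and 2.36 CPM in WT and 7.56, 6.86 and 7.19 CPM in SAKI mice, so the groups were again apart. Its log2 ratio of 0.68 had an SE of 0.33 (edgeR adjusted p = 0.318).

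For Il1a, an alarmin that acts on the same receptor as IL-1β, levels were 1.78, 1.43 and 0.720 CPM in WT and 1.83, 2.52 and 1.86 CPM in SAKI mice, a log2 ratio of 0.65 (SE 0.38, edgeR adjusted p = 0.391). Il1b, the classical inflammatory cytokine of the family, was at 1.29, 1.297 and 2.75 CPM in WT and 0.587, 0.711 and 1.09 CPM in SAKI mice. The groups did not overlap for either gene, with Il1a on the higher side and Il1b on the lower. The log2 ratio of Il1b was -1.14 (SE 0.44, edgeR adjusted p = 0.248), at few counts per library. Il1rn, the receptor antagonist that competes with both, was at 1.78, 1.62 and 3.40 CPM in WT and 1.17, 1.81 and 2.74 CPM in SAKI mice, with full overlap. Its sign turned when WT 3 was left out.

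Il33 encodes an alarmin held in the nuclei of stromal cells and released on damage. It was at 38.8, 10.1 and 31.8 CPM in WT and 19.8, 11.6 and 14.0 CPM in SAKI mice. WT 1 and WT 3 lay above all SAKI mice and WT 2 below them. With 6 mice the log2 ratio was -0.83 (SE 0.47, edgeR adjusted p = 0.371), and without WT 2 it was -1.22 (SE 0.23, edgeR adjusted p = 0.0211). The remaining 5 of the 11 genes, Il1f5, Il1f6, Il1f8, Il1f9 and Il1f10 of the IL-36 and IL-38 branch, had no count or, for Il1f9, at most 6 counts.

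Receptor genes of the IL-1 family included neighbours on chromosome 1 that stood on opposite sides. Il1r2, Il1r1, Il1rl2, Il1rl1, Il18r1 and Il18rap lie in this order on the plus strand within 478 kb of GRCm38, each in the same orientation. Only 136 bases separate the end of Il1rl1 from the start of Il18r1. Between Il1r1 and Il1rl2 there are 7352 bases. The RefSeq promoter windows (GRCm38.p6, 250 bases before to 50 after a transcript's start) of these 6 genes are printed because neighbours had log2 ratios of opposite sign, and that of Il7r because it had the smallest p of the members. Capitals mark matches, on either strand, to 4 motifs by their letters: AP-1 as TGANTCA, STAT as TTCNNNGAA, NF-κB as GGANTTTCC and RBPJ, the factor through which Notch acts, as TGGGAA.
Il1r2, chr1:40085843-40086142, plus strand: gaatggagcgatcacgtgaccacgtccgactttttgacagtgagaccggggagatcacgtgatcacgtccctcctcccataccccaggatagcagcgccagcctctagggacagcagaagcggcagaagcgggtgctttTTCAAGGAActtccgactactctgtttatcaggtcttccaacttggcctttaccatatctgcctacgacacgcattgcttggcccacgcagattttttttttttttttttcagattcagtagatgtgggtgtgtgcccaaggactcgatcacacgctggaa
Il1r1, chr1:40224830-40225129, plus strand: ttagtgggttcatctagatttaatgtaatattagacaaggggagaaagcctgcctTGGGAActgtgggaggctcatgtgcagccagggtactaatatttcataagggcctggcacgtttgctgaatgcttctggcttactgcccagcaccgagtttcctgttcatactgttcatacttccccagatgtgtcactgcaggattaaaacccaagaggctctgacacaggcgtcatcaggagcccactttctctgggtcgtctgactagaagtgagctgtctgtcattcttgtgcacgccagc
Il1rl2, chr1:40324339-40324638, plus strand: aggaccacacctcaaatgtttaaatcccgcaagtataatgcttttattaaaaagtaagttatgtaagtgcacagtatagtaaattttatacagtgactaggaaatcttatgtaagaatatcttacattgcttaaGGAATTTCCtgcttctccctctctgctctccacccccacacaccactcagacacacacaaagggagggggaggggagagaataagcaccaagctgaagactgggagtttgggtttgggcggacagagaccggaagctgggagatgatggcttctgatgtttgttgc
Il1rl1, chr1:40429320-40429619, plus strand: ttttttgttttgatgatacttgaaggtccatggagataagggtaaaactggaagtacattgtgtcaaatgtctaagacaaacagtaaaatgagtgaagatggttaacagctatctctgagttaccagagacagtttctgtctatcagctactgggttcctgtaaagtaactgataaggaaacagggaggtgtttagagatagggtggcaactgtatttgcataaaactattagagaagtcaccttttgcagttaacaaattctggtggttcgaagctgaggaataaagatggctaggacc
Il18r1, chr1:40465756-40466055, plus strand: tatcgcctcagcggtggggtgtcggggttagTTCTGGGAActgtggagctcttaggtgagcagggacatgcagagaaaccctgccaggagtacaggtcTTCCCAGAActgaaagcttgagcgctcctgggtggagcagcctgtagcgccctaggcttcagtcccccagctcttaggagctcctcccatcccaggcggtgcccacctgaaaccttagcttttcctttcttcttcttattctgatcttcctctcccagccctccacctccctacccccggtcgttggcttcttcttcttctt
Il18rap, chr1:40515112-40515411, plus strand: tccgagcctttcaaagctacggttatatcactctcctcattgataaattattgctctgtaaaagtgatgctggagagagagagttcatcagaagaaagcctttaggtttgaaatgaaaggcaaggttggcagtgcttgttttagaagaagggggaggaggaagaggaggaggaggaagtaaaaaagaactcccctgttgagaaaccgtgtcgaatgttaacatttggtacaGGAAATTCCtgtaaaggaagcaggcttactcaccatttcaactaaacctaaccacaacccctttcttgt
Il7r, chr15:9529827-9530126, minus strand: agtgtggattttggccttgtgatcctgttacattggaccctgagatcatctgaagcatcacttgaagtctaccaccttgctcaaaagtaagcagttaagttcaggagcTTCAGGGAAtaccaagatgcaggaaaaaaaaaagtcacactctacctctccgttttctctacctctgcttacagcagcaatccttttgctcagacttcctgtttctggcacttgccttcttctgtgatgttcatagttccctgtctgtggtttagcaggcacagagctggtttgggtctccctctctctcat

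The Il1r2 and Il7r windows each held 1 STAT match, the Il1r1 window held 1 RBPJ match, the Il1rl2 and Il18rap windows each held 1 NF-κB match and the Il1rl1 window held none of the 4. The Il18r1 window held 2 STAT matches, and each of its 2 RBPJ matches lies inside one of them. Of all 32851 windows, 8.30% held a STAT match, 25.6% an RBPJ match, 7.81% an AP-1 match and 1.25% an NF-κB match. The Il1r2 window lies 12014 bases from the gene start in the deposited files and the Il18r1 window 454 bases from it, so both mark other annotated starts. A window was found for 68 of the 85 members. A match describes letters, and binding was not measured.

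Il1r2, the decoy receptor that captures IL-1 without signaling, lies on chromosome 1 from 40074079 to 40125231 and was at 8.28, 36.1 and 7.27 CPM in WT and 29.2, 33.2 and 37.1 CPM in SAKI mice. WT 2 lay among the SAKI mice, far above WT 1 and WT 3. Hence its log2 ratio was 0.95 with 6 mice (SE 0.59, edgeR adjusted p = 0.418) and 2.09 without WT 2 (SE 0.15, edgeR adjusted p = 0.00233). Il1r1, the signaling receptor next to it from 40225080 to 40317257, was at 119.9, 97.5 and 268 CPM in WT and 72.3, 82.4 and 75.6 CPM in SAKI mice. Every WT library lay above every SAKI library, and WT 3 lay far above the other WT libraries. The log2 ratio was -1.08 (SE 0.36, edgeR adjusted p = 0.217; DESeq2 adjusted p = 0.0461), and -1.34 without WT 2 (edgeR adjusted p = 0.0356). The log2 ratios of the decoy and the signaling receptor were of opposite sign with and without WT 2.

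Il1rl1 encodes ST2, the receptor for IL-33, which regulatory T cells, innate lymphoid cells and mast cells carry. Between 40429570 and 40465415 on the same chromosome, it was at 45.8, 15.3 and 29.3 CPM in WT and 13.0, 16.8 and 17.8 CPM in SAKI mice. WT 2 lay again within the SAKI range, and for the ligand Il33 just below it. The log2 ratio came to -0.92 (SE 0.37, edgeR adjusted p = 0.26), and -1.23 without WT 2 (SE 0.22, edgeR adjusted p = 0.0192). The summed level of 4 type 2 lymphoid markers overlapped, at 61.2 to 77.9 CPM in WT and 64.9 to 74.5 CPM in SAKI mice, with Areg at or near 0. Rora alone, at 54.3 to 73.8 CPM in WT and 58.6 to 66.9 CPM in SAKI mice, made up most of that sum. Gata3 lay at 3.50 to 6.92 CPM over all libraries and Klrg1 below the limit for expression. The sum therefore says little about any marker but Rora. The summed level of 5 mast cell markers, at 67.1 to 93.4 CPM in WT and 91.6 to 116.5 CPM in SAKI mice, overlapped through WT 2 alone. Without it the WT sums were 67.1 to 74.6 CPM, below every SAKI library. Then 3 of the 5 genes passed edgeR's test, each higher in SAKI mice, where 16.6% of all genes passed. Kit of the same list went the other way, with a log2 ratio of -0.23, or -0.43 without WT 2 (edgeR adjusted p = 0.0984). The part of these cells was not tested.

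Il18r1, the binding chain for IL-18, starts at 40465552 and was at 20.1, 15.4 and 12.8 CPM in WT and 24.1, 25.4 and 28.9 CPM in SAKI mice. All 3 SAKI libraries exceeded the WT libraries, in contrast to Il1rl1 beside it. Its log2 ratio was 0.70 (SE 0.19, edgeR adjusted p = 0.18; DESeq2 adjusted p = 0.0393). Its partner Il18rap, the accessory chain for IL-18, had a log2 ratio of 0.28 with overlap between the groups, and Il1rl2, the receptor of the IL-36 cytokines, one of -0.11, which was 0.14 without WT 2 (edgeR adjusted p = 0.315). Il1rap, on chromosome 16 from 26581704 to 26730117, is the accessory chain of IL-1R1 and ST2. It was at 10.2, 17.1 and 7.66 CPM in WT and 22.1, 23.0 and 22.0 CPM in SAKI mice, without overlap and with WT 2 nearest to the SAKI mice. This gave a log2 ratio of 0.94 (SE 0.28, edgeR adjusted p = 0.192; DESeq2 adjusted p = 0.0492), and 1.33 without WT 2 (edgeR adjusted p = 0.00694).

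**Figure D3:**
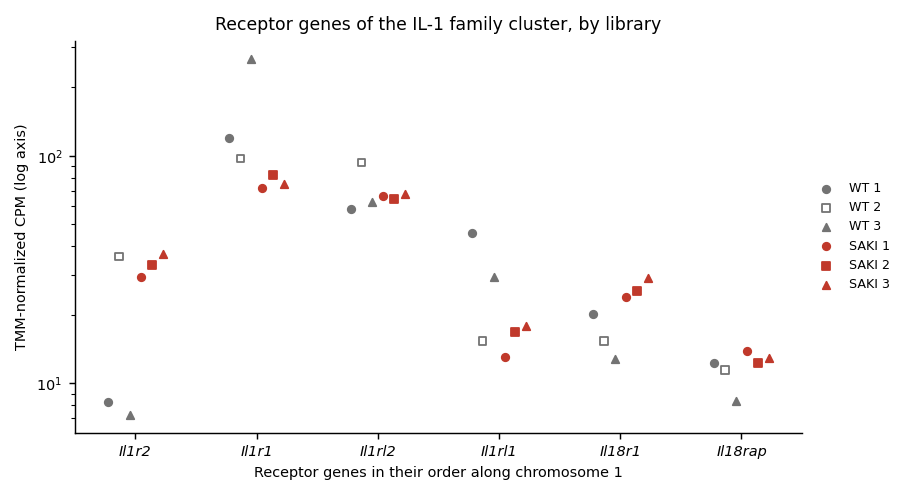
TMM-normalized CPM (log axis) of the 6 IL-1 family receptor genes of chromosome 1, in their order along it, in each WT (grey, WT 2 open) and SAKI (red) library. For Il1r2 and Il1rl1, WT 2 (36.1 and 15.3 CPM) lies beside the SAKI libraries, and for Il1r1 and Il18r1 the groups are apart in opposite directions.

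Receptors of the common gamma chain and type 2 cytokines leaned toward higher levels in SAKI mice. Of 12, 11 had a log2 ratio above 0, with a median of 0.41 and 0.34 without WT 2, and in 5 every SAKI library lay above every WT library, as did 13% of all genes. Il3ra, the receptor chain for IL-3, was counted among the 12, though IL-3 does not act through the common gamma chain. Il7r, the receptor chain for IL-7 and a marker of naive and memory T cells and lymphoid progenitors, lies on chromosome 15 from 9506161 to 9529876. It was at 63.0, 46.2 and 79.5 CPM in WT and 125, 152 and 134 CPM in SAKI mice, means of 62.9 ± 16.7 and 137 ± 14.0 CPM (SD, n = 3 each). The lowest SAKI library was well above the highest WT library, and WT 2 was the lowest of all. With a log2 ratio of 1.12 (SE 0.20, edgeR adjusted p = 0.148; DESeq2 adjusted p = 0.000173), Il7r had the smallest p of the members. Without WT 2 it was 0.95 (SE 0.15, edgeR adjusted p = 0.0136).

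Il2rg, the common gamma chain itself, on chromosome X from 101264378 to 101268255, was at 113, 77.0 and 95.1 CPM in WT and 128, 136 and 141 CPM in SAKI mice, again without overlap. The log2 ratio was 0.51 (SE 0.15, edgeR adjusted p = 0.192). A predicted gene, Gm20489, shares part of its exons on the same strand, so some reads may have been assigned to either. Il2rb, which binds IL-2 and IL-15 on T and NK cells, was at 45.3, 26.1 and 39.9 CPM in WT and 47.8, 49.0 and 57.3 CPM in SAKI mice, a log2 ratio of 0.47 (edgeR adjusted p = 0.282). Here too the SAKI mice were above all WT mice, though by a small margin over WT 1. Il5ra, which marks eosinophils and some B cells, was at 4.05, 3.44 and 2.68 CPM in WT and 4.56, 5.24 and 4.86 CPM in SAKI mice, a log2 ratio of 0.53 (edgeR adjusted p = 0.281). Il13ra1, which pairs with the IL-4 receptor, was at 29.2, 31.9 and 26.0 CPM in WT and 33.8, 36.0 and 35.5 CPM in SAKI mice, a smaller difference with a log2 ratio of 0.27 (edgeR adjusted p = 0.27). In both genes the groups were apart.

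Il15ra, which presents IL-15 to neighbouring cells, was at 30.1, 57.3 and 35.3 CPM in WT and 52.3, 47.3 and 57.1 CPM in SAKI mice. WT 2 was the highest library, so that the log2 ratio of 0.35 (edgeR adjusted p = 0.452) became 0.68 without it (edgeR adjusted p = 0.0216). The ligand Il15 was at 6.50, 8.04 and 3.21 CPM in WT and 7.82, 6.34 and 6.51 CPM in SAKI mice, with overlap. Il7, the ligand of the IL-7 receptor, was at 6.32, 4.41 and 3.21 CPM in WT and 6.45, 7.37 and 5.74 CPM in SAKI mice. WT 1 lay within the SAKI range for Il7, and its log2 ratio of 0.49 had an SE of 0.28 (edgeR adjusted p = 0.385). Il4ra, the binding chain for IL-4 and IL-13, was the 1 receptor of the group below 0, at 157, 96.2 and 297 CPM in WT and 109, 118 and 133 CPM in SAKI mice. WT 2 was below and WT 1 and WT 3 above the SAKI mice, and the log2 ratio was -0.62 (SE 0.37, edgeR adjusted p = 0.407), or -0.92 without WT 2 (edgeR adjusted p = 0.0581).

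Some T cell markers moved with this group. The 6 genes of the T and NK cell list summed to 226, 156 and 171 CPM in WT and 276, 292 and 310 CPM in SAKI mice, without overlap. For 4 of the 6, Cd3e, Cd3g, Cd4 and Trac, every SAKI library was higher, as for 13% of all genes. Cd8a and Ncr1, the NK cell marker of the list, overlapped. Their log2 ratios were 0.19 and 0.16, and -0.01 and 0.43 without WT 2. As for Il7r and Il2rg, WT 2 had the lowest sum. B cell markers, at 706, 408 and 616 CPM against 624, 704 and 700.0 CPM, overlapped. The part of these cells in the receptor levels was not tested.

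**Figure D4:**
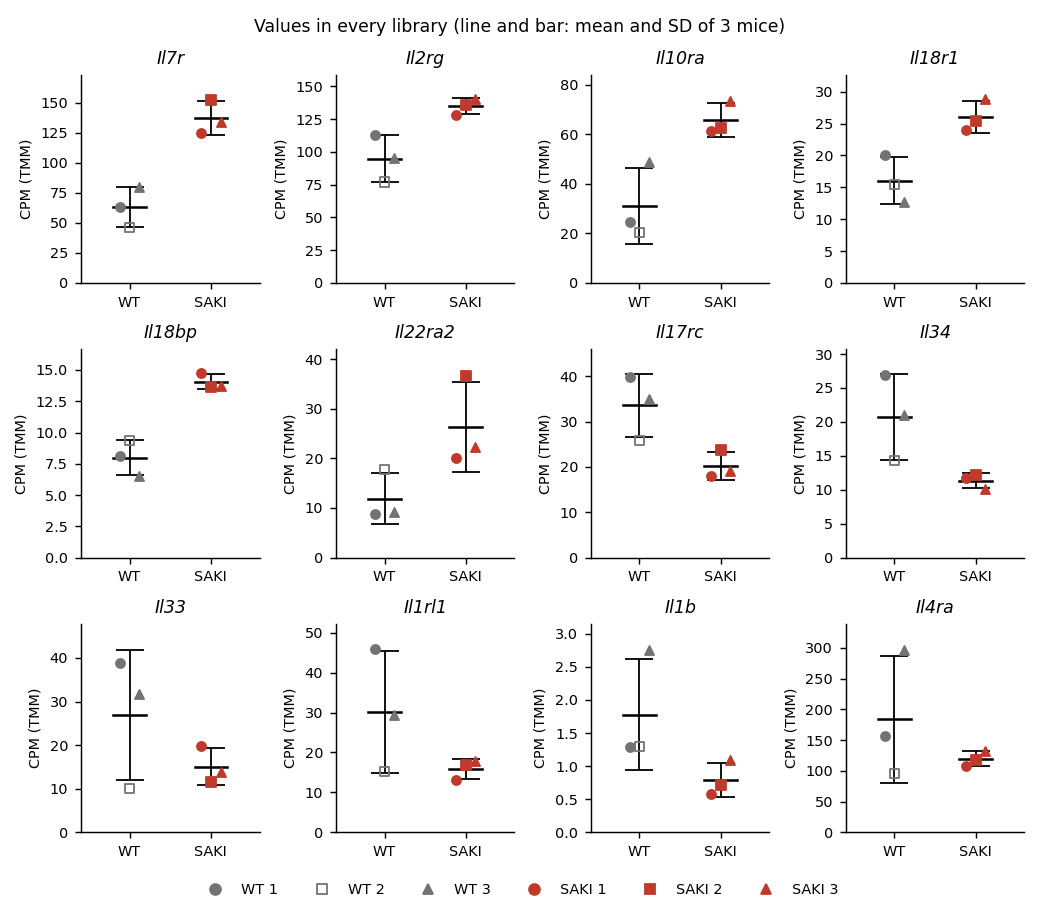
TMM-normalized CPM of 12 interleukin and receptor genes in each of 3 WT (grey, WT 2 open) and 3 SAKI (red) libraries, with a line at each group's mean and a bar of 1 SD. The groups are apart in 9 panels, Il7r with WT at 46.2 to 79.5 and SAKI at 125 to 152 CPM among them, and overlap for Il33, Il1rl1 and Il4ra.

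In the IL-6 and IL-12 families 1 of 7 ligand genes and 7 of 11 receptor genes were expressed. Il6, an inflammatory cytokine that muscle and fat also release, had 5, 5 and 54 counts in WT and 6, 4 and 11 counts in SAKI mice, so that 1 WT library held most of them, and the gene was too low to be tested. Il12a and Il12b, the subunits of IL-12, were the tested ligands, with log2 ratios of -0.14 and -0.17. Il6st, which encodes gp130, a signaling chain that the receptors for IL-6 and IL-11 share, was at 355, 289 and 363 CPM in WT and 403, 292 and 295 CPM in SAKI mice. The libraries of the groups were mixed and the log2 ratio was -0.03 (SE 0.17), with a sign that changed under upper-quartile scaling. Il6ra, which binds IL-6, was at 88.7, 132 and 119.6 CPM in WT and 127, 150.2 and 129 CPM in SAKI mice, and Il11ra1, which binds IL-11, at 46.9, 42.2 and 55.4 CPM and 40.5, 42.4 and 44.4 CPM. Both overlapped through WT 2 alone, with log2 ratios of 0.26 (edgeR adjusted p = 0.437) and -0.18 (edgeR adjusted p = 0.458). Without WT 2 these were 0.38 (edgeR adjusted p = 0.144) and -0.27 (edgeR adjusted p = 0.143).

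A receptor for IL-27 and a chain of the IL-12 receptor were higher in every SAKI library, while the other IL-12 receptor chain, Il12rb1, overlapped. Il27ra was at 39.7, 27.4 and 37.3 CPM in WT and 43.4, 47.6 and 52.7 CPM in SAKI mice, a log2 ratio of 0.46 (SE 0.16, edgeR adjusted p = 0.226). Il12rb2, which marks type 1 helper T cells, was at 1.35, 1.82 and 2.09 CPM in WT and 2.61, 2.78 and 2.64 CPM in SAKI mice, a log2 ratio of 0.61 (SE 0.26, edgeR adjusted p = 0.278). Serbp1, on the opposite strand, overlaps part of its exons, and the strand setting of the counting is not given in the sources used here. A pair of other genes of the group was singled out after their values were seen. Il23r, a receptor chain for IL-23, fell just short of the level set for expression, at 0.675, 0.584 and 0.589 CPM in WT and 1.24, 1.68 and 0.930 CPM in SAKI mice, without overlap (log2 ratio 1.04, edgeR adjusted p = 0.212). Il31ra, the receptor chain for IL-31, was at 11.7, 0.843 and 7.66 CPM in WT and 1.83, 0.517 and 2.38 CPM in SAKI mice. WT 2 was again among the SAKI mice, and the log2 ratio of -2.08 (edgeR adjusted p = 0.276) became -2.59 without it (edgeR adjusted p = 0.0248), the largest of the 12 calls in size.

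The IL-10 family was represented by its receptors alone. Il10ra, the binding chain for IL-10 on macrophages and lymphocytes, lies on chromosome 9 from 45253837 to 45269149 and was at 24.4, 20.2 and 48.7 CPM in WT and 61.2, 62.5 and 73.6 CPM in SAKI mice. All SAKI libraries were above WT 3, the highest WT library. The log2 ratio came to 1.08 (SE 0.32, edgeR adjusted p = 0.191; DESeq2 adjusted p = 0.0282), and 0.85 without WT 2 (edgeR adjusted p = 0.0889). Il10rb, which pairs with it and with other chains of the family in many cell types, was at 42.3, 51.0 and 36.9 CPM in WT and 53.4, 45.6 and 49.2 CPM in SAKI mice, with a log2 ratio of 0.19 (edgeR adjusted p = 0.507). WT 2 alone made the groups overlap, and without it the log2 ratio was 0.32 (SE 0.11, edgeR adjusted p = 0.104). The predicted gene Gm21970 shares part of the exons of Il10rb on the same strand.

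Il22ra2 encodes a soluble receptor that binds and blocks IL-22. The gene, on chromosome 10 from 19621998 to 19634681, was at 8.84, 17.8 and 9.10 CPM in WT and 20.01, 36.7 and 22.2 CPM in SAKI mice. The groups were apart, with WT 2 close below SAKI 1. Its log2 ratio was 1.14 (SE 0.35, edgeR adjusted p = 0.198; DESeq2 adjusted p = 0.0407), and 1.55 without WT 2 (edgeR adjusted p = 0.0208). Its ligand Il22 and the membrane receptor Il22ra1 had no count in any library.

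Of the 5 receptors of the IL-17 family, Il17rc was the one whose groups did not overlap. Il17rc, a receptor chain for IL-17A and IL-17F, lies on chromosome 6 from 113471427 to 113483140 and was at 39.8, 25.9 and 35.0 CPM in WT and 18.0, 23.7 and 19.02 CPM in SAKI mice. The highest SAKI library was below the lowest WT library, WT 2. Its log2 ratio was -0.73 (SE 0.19, edgeR adjusted p = 0.177; DESeq2 adjusted p = 0.0272), and -0.88 without WT 2 (edgeR adjusted p = 0.0161). Il17ra, the chain it pairs with, was at 72.0, 55.4 and 83.3 CPM in WT and 65.4, 72.1 and 81.4 CPM in SAKI mice, with a log2 ratio of 0.06 whose sign turned without WT 2. Il17rd, a related membrane protein known for damping FGF signaling, was at 19.8, 20.7 and 13.2 CPM and 19.9, 21.1 and 17.6 CPM, with a log2 ratio of 0.13 whose sign turned without WT 3. Both overlapped between groups, and Il17rb and Il17re stood at 0.03 and -0.32. The ligands that use Il17rc were at the limit of detection: Il17a had no count and Il17f 1 count each in WT 1 and SAKI 1.

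Among the 3 tested genes outside these families, Il34 had the largest log2 ratio in size. Il34 encodes a ligand of the CSF-1 receptor that sustains macrophages, and lies on chromosome 8 from 110741829 to 110805924. It was at 26.9, 14.3 and 21.0 CPM in WT and 11.7, 12.2 and 10.1 CPM in SAKI mice, below all WT libraries in each. This gave a log2 ratio of -0.87 (SE 0.24, edgeR adjusted p = 0.181; DESeq2 adjusted p = 0.028), and -1.08 without WT 2 (edgeR adjusted p = 0.0118). Il16, a chemoattractant for CD4+ cells made in lymphocytes, was at 83.1, 58.9 and 58.3 CPM in WT and 66.2, 90.7 and 109 CPM in SAKI mice, with overlap (log2 ratio 0.41, edgeR adjusted p = 0.358). Il4i1, an amino acid oxidase induced by IL-4, had a log2 ratio of 0.13, but most of its exonic bases overlap Tbc1d17 on the opposite strand, and reads of either gene may be in its counts. Stard5 overlaps Il16 in the same way over a smaller part.

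The receptor for IL-34 lay in the opposite direction. Csf1r, chosen here after its values were seen, was at 127, 248 and 97.2 CPM in WT and 258, 271 and 290 CPM in SAKI mice, where the groups did not overlap (log2 ratio 0.80, edgeR adjusted p = 0.264), and the difference was larger without WT 2 (1.29, edgeR adjusted p = 0.00566). Csf1r also marks macrophages, whose 8 markers summed to 1143, 2172 and 932 CPM in WT and 2239, 2391 and 2686 CPM in SAKI mice. The sums did not overlap, with WT 2 just below the SAKI mice. Lyz2 was the largest part of the sum, at 849 CPM in WT 2 and 986 to 1150 CPM in SAKI mice. For 4 of the 8, Adgre1, Cd68, Csf1r and Lyz2, every SAKI library was higher, as for 13% of all genes. Mrc1, Cd163, C1qa and C1qb overlapped. Fibroblast and progenitor markers summed to 4102, 8978 and 2860 CPM in WT and 8503, 8297 and 9375 CPM in SAKI mice, with WT 2 within the SAKI range, the same place it took for Il1r2 and Il1rl1. Without WT 2, 5 of these 6 genes passed edgeR's test, each higher in SAKI mice. Pdgfra did not, with a log2 ratio of -0.11 (edgeR adjusted p = 0.667). Adipocyte markers summed to 13896, 17175 and 17364 CPM in WT and 13358, 12424 and 12038 CPM in SAKI mice, lower in every SAKI library. Fabp4 was the largest part of that sum, at 8508 to 10671 CPM in WT mice. For 3 of the 6 genes, Cidec, Fabp4 and Lipe, every SAKI library was lower, as for 12.4% of all genes. Adipoq, Plin1 and Lep overlapped, and the log2 ratio of Adipoq was -0.17, or 0.07 without WT 2. Neutrophil markers, on 5 genes with Ly6g near 0, summed to 16.0 to 40.5 CPM in WT and 40.2 to 46.3 CPM in SAKI mice, but to 16.0 to 31.0 CPM in WT without WT 2, below every SAKI library. The sums of 5 endothelial markers, 919.9 to 1037 CPM and 913 to 1010 CPM, overlapped. The part of these cells in the interleukin and receptor levels was not tested.

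**Figure D5:**
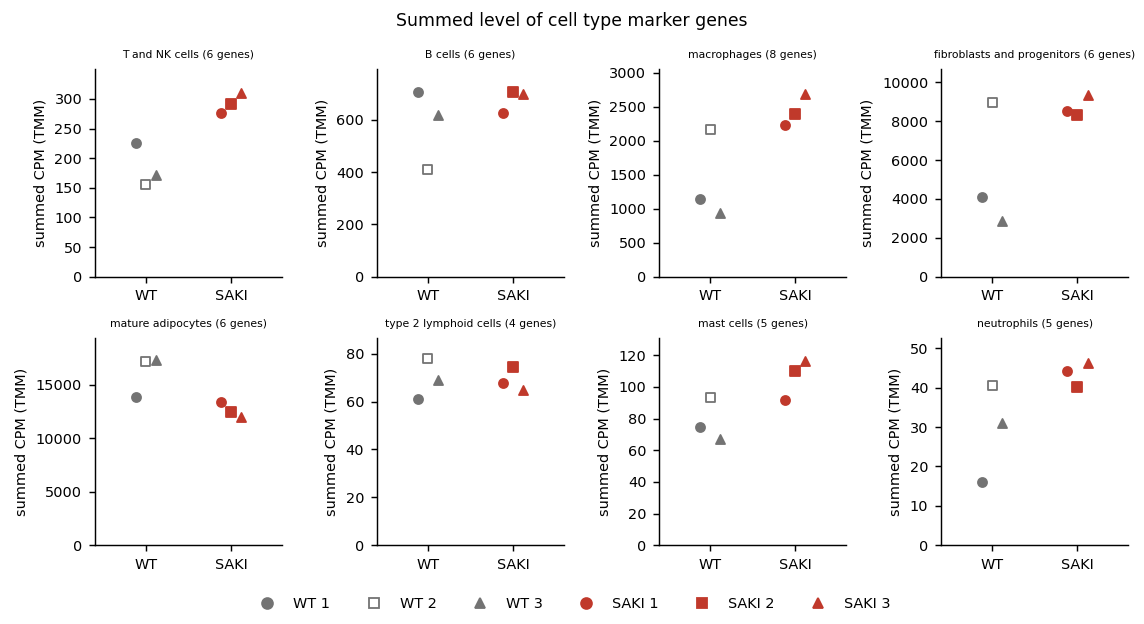
Summed TMM-normalized CPM of 8 lists of cell type markers in each of 3 WT (grey, WT 2 open) and 3 SAKI (red) libraries. T and NK cell and macrophage sums are higher and adipocyte sums lower in every SAKI library, though some genes of each of these lists overlap. For fibroblasts and progenitors WT 2 (8978 CPM) lies among the SAKI libraries at 8297 to 9375 CPM.

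Genes that carry interleukin signals inside the cell or release the cytokines did not lean to one side. The list held 69 genes for JAK and STAT proteins, their inhibitors, the MyD88 and NF-κB pathway, the inflammasome and related cytokines and receptors. Of the 67 tested, 30 were above and 37 below 0 with a median log2 ratio of -0.03, edgeR called 0 and DESeq2 2 (against 4.7% of all genes), and at an unadjusted p under 0.05 there were 3 higher and 5 lower (8.36% and 9.99% of all genes). Without WT 2, edgeR called 9, of which 3 were higher and 6 lower, where it called 16.6% of all genes. For 7 genes every SAKI library was higher and for 3 every one was lower, against 13% and 12.4% of all genes.

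Ebi3, the shared subunit of IL-27 and IL-35, had the smallest p of the list. It was at 2.39, 2.205 and 2.55 CPM in WT and 5.93, 6.60 and 6.20 CPM in SAKI mice, with each group close within itself. The log2 ratio was 1.39 (SE 0.20, edgeR adjusted p = 0.148; DESeq2 adjusted p = 0.000154), and 1.34 without WT 2 (edgeR adjusted p = 0.0128). Its partner gene Il27 had 3 to 5 counts in each library. Sdc1, a proteoglycan of the cell surface that can also bind IL-34, was at 42.0, 18.6 and 41.6 CPM in WT and 16.2, 14.3 and 14.2 CPM in SAKI mice, below the WT libraries throughout. Its log2 ratio of -1.20 (SE 0.30, edgeR adjusted p = 0.173; DESeq2 adjusted p = 0.00836) was -1.49 without WT 2 (edgeR adjusted p = 0.00233).

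Socs3, an inhibitor that IL-6 type cytokines induce, was at 26.3, 19.6 and 51.3 CPM in WT and 12.0, 16.4 and 19.7 CPM in SAKI mice, where SAKI 3 just exceeded WT 2 (log2 ratio -1.02, edgeR adjusted p = 0.235). Osmr, the receptor for oncostatin M and a partner of gp130, was at 123, 96.5 and 157 CPM in WT and 91.0, 95.7 and 90.1 CPM in SAKI mice (log2 ratio -0.44, edgeR adjusted p = 0.259). Without WT 2, both passed the test, Socs3 at -1.27 (edgeR adjusted p = 0.0436) and Osmr at -0.60 (edgeR adjusted p = 0.0289). Ptpn11, a phosphatase recruited by gp130, was at 228, 205 and 282 CPM in WT and 169, 196 and 182 CPM in SAKI mice (log2 ratio -0.39, edgeR adjusted p = 0.243). Pycard, the adaptor of the inflammasome, was at 14.9, 12.9 and 10.8 CPM in WT and 15.2, 18.8 and 20.4 CPM in SAKI mice (log2 ratio 0.49, edgeR adjusted p = 0.236). For Osmr, Ptpn11 and Pycard the groups did not overlap, Pycard on the higher side.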

How the data were processed

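Poly(A)-captured RNA-seq of IngWAT from 3 WT and 3 SAKI mice was grouped by the sample labels. Raw gene counts were deposited by the authors as 1 file a library, and FPKM as 1 table, in which the same counts are scaled by gene length and library total. GRCm38, StringTie 1.3.0, Bowtie2 2.2.6 and HISAT2 2.0.4 appear in the submitters' processing notes without their roles. Which tool counted the reads, and whether by strand, is not given in the sources used here. Reads of genes with shared exons may therefore have gone to either gene. Gene positions are as deposited, and 68 of 85 members have the same position in GENCODE M21.

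edgeR 4.0.16 in R 4.3.3 was run with filterByExpr (count minimum 10, total 15), TMM factors, the quasi-likelihood test and Benjamini-Hochberg adjustment over 15400 genes, with a threshold of 0.05. The common biological coefficient of variation was 23.3% and the median total 15732636 counts. The study names no test for single RNA-seq genes. As alternatives, DESeq2 1.42.0, limma-voom, limma 3.58.1 on log2(FPKM + 1) or log2(FPKM + 0.1), other scalings (RLE, upper quartile), no filter, a replicate block and the omission of each library were used. No pair of libraries was close enough to be 1 sample, and the labels name each mouse separately.

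Values are printed for expressed members with an unadjusted p under 0.05 or groups apart (at most 24, by p), for a set list of ligands, antagonists and receptors, and for the 6 signaling genes of smallest p. Members and lists were chosen with earlier results of these data known, and the signaling and marker lists come from general knowledge.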

Additional observations from a re-analysis of the deposited data

How the results depend on the processing

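The 5 genes called among all genes became 724 with DESeq2, 8 with no filter, 9 on log2(FPKM + 1) and 9 on log2(FPKM + 0.1), and 1 to 2598 when a library was left out. The 0 members called became 9 with DESeq2 and 0 to 12 when a library was left out, with 12 without WT 2. The 15 members at an unadjusted p under 0.05 became 9 (without SAKI 2) to 23 (without WT 2), and the 19 whose groups did not overlap became 19 to 31 (without WT 2). The 0 signaling genes called became 2 with DESeq2, 1 on log2(FPKM + 1), 1 on log2(FPKM + 0.1) and 0 to 9 without a library, with 9 without WT 2. Same-numbered mice had r = 0.036, 0.042 and 0.089 between their deviations from the group means, and other pairs -0.199 to 0.163. With 3 mice a group, these values cannot decide whether the numbers pair the mice. With the replicate block 1 gene of all was called, 0 members, and 16 members had an unadjusted p under 0.05. Members expressed numbered 48, or 51 at 0.5 CPM, 44 at 1 CPM in all 6 libraries and 36 at 1 FPKM. Among 39 named genes, 10 of 534 log2 ratios reversed, in 5 genes. With a library left out, Il1rn ranged from -0.60 to 0.17, Il6st from -0.21 to 0.051, Il15 from -0.079 to 0.50, Il17ra from -0.086 to 0.20 and Il17rd from -0.050 to 0.25, and Il6st was 0.017 under upper-quartile scaling. The cause was not tested for any of these. Genes at a few counts, most ligands among them, cannot be compared at this depth.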
